A study of Mus musculus with 44 samples.

Results

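Tone-alone (TA) mice are the baseline of this study of fear learning, and here the TA mice of batch 1 were compared with those of batch 5. The members were all samples labelled TA with batch label 1 (4 mice, animals 8, 9, 10 and 35) or batch label 5 (7 mice, animals 4, 5 and 36 to 40), which made 11 of the 44 mice in the series. The study measured ribosome-associated RNA of Crh-expressing neurons of the central amygdala after tone alone, fear conditioning (FC) or extinction (EXT). All mice of all groups were adult Crh-TRAP mice, first-generation progeny of a Crh-Cre line and a Cre-dependent eGFP-L10a line, and were heterozygous for both transgenes. TA mice were habituated to the chamber for 10 min on 2 days and then heard 5 tones of 30 s at 6000 Hz, 90 s apart, with the shock generator switched off. FC mice received the same tones paired with shock, and EXT mice were conditioned and heard tones without shock the next day. Each sample came from bilateral punches of an individual mouse. The sex of the mice was not balanced, with 3 females and 1 male in batch 1 and 2 females and 5 males in batch 5, so sex was a term of each test. What the batches differed in (day, dissection, immunoprecipitation, library or flow cell) is not given in the sources used here, and these cannot be told apart.

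In TRAP, translating ribosome affinity purification, a ribosomal protein carrying a green fluorescent tag is made in cells of a chosen type, and an antibody against the tag pulls down their ribosomes with the RNA bound to them. Crh encodes corticotropin-releasing hormone, a stress peptide, and Crh neurons of the central amygdala are inhibitory neurons of the fear circuit. The L10a tag is driven wherever the Crh-Cre transgene is or was active, so the pulldown is no better than that transgene, and RNA of neighboring cells that sticks to the beads can be read along with it. Genes for cytosolic ribosomal proteins and for many subunits of the respiratory chain are short, are used in every cell and belong to the most abundant messengers of neurons. Genes for receptors, channels and adhesion proteins are often long, and some of their messengers are found in dendrites as well as in the soma.

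Differences between the batches covered much of the translatome. Of 8203 genes, 3904 passed an FDR of 0.05 (47.6%), 1949 of them higher in batch 5 (23.8%) and 1955 lower in batch 5 (23.8%). Without adjustment, 4506 genes (54.9%) had a p under 0.05. The median difference over all genes was -0.03 on the log2 scale, and the median size of the called differences was 0.63. Among the called genes, 537 were more than 1 higher on the log2 scale and 175 more than 1 lower. Genes were called stable where the 95% confidence interval of the difference lay wholly within 0.5 of 0 on the log2 scale, which held for 2244 genes (27.4%) and, without mouse 35, the male of batch 1, for 1438. Without that mouse the difference rests on the females, since sex is a term. Another 2121 genes (25.9%) were neither called nor stable, and 66 were both. Values of the 4 mice of batch 1 and the 7 mice of batch 5 did not overlap in 3015 genes (36.8%). Pearson correlation of the log2 values, across genes, lay between 0.9335 and 0.9752 for pairs of mice within batch 1, between 0.960 and 0.985 within batch 5 and between 0.858 and 0.929 for pairs across the batches. The first principal component of these 11 mice carried 62.2% of the variance and held all mice of batch 1 on one side and all mice of batch 5 on the other. Effective library size was 18847373 ± 1967056 reads in batch 1 (SD, n = 4) and 17058111 ± 1566027 in batch 5 (SD, n = 7), a difference of -1789262 reads (p = 0.121, exact two-sided permutation test). Without mouse 8 it was -2661865 reads (p = 0.0333, exact two-sided permutation test). No gene had fewer than 29 reads in any of these mice.

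The abundance ranking was taken from the mean level over the 11 mice in log2 cpm per kilobase of exon (cpm is the read count scaled to the depth of the library), for the 8148 genes with an exon length. The median gene was at 3.58 on this scale and the highest at 12.08. Highest in the ranking was Gm23935, a feature of 57 bases of exon, for which a level per kilobase rests on a very short length. Calm2, which encodes the calcium sensor calmodulin, followed at 12.07. Ttr, which encodes the thyroxine carrier transthyretin and is a marker of choroid plexus epithelium, was at rank 3 with 11.44. Among the 20 highest genes were 6 subunits of the respiratory chain, namely Ndufa1 at 10.88, Cox8a at 10.80, Cox6b1 at 10.16, Uqcr11 at 10.12, Cox6a1 at 10.00 and Ndufa4 at 9.67, together with the malate dehydrogenase gene Mdh1 at 9.74, which acts in the shuttle that feeds the chain. Peptide precursors were represented by Penk, which encodes proenkephalin, at 10.48 and Sst, which encodes somatostatin, at 9.93. Crh itself was at rank 1458 with 5.52. Also among them were Bex2, Bex3, Tmsb4x (thymosin beta 4, which binds actin monomers), Ubb (ubiquitin), Snrpn, Stmn3 (a stathmin of microtubules) and 6330403K07Rik.

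**Figure D1:**
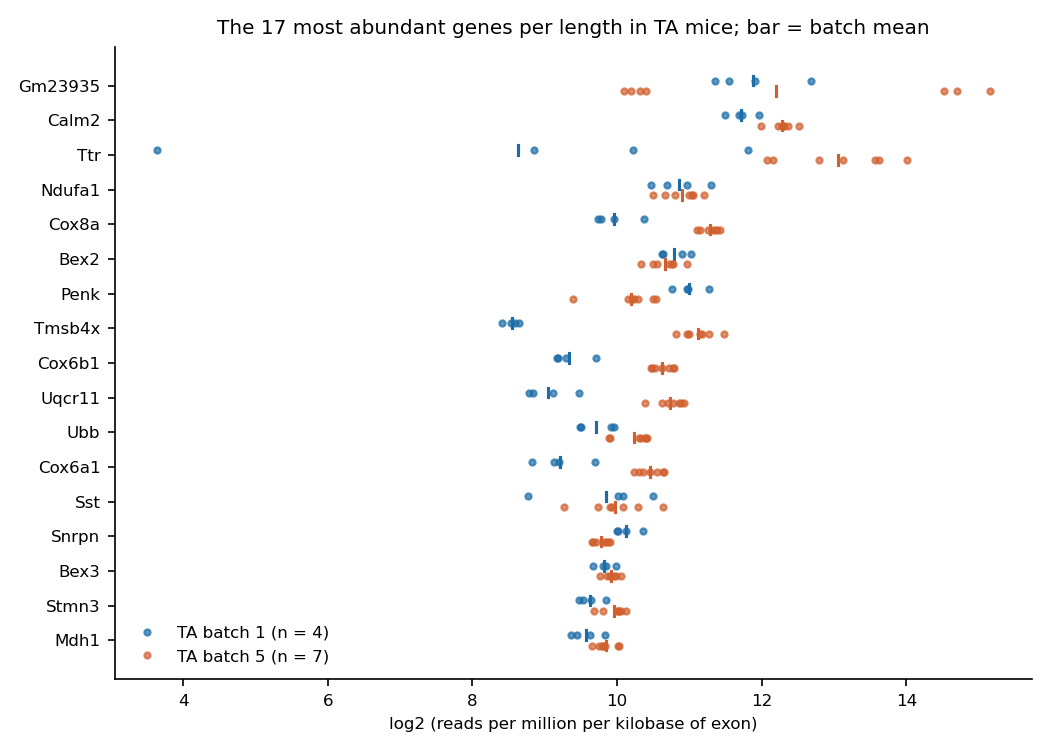
Level per kilobase of exon (log2 cpm per kilobase) of the 17 highest genes in the TA mice of batch 1 (n = 4) and batch 5 (n = 7), each point a mouse and each bar a batch mean. Tmsb4x and the respiratory chain genes Cox8a, Cox6b1, Uqcr11 and Cox6a1 lie higher in batch 5, Penk lies lower, and Bex2, Bex3 and Ndufa1 overlap.

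Order at the top depended on the batch. Between the 2 batch rankings 10 of the highest 20 genes, 64 of the highest 100 and 808 of the highest 1000 were shared, and the Spearman correlation of the levels across genes was 0.947. Of the 100 highest genes, 53 were called higher in batch 5 (53.0%), 9 lower (9.0%) and 23 stable (23.0%), against 23.6%, 23.9% and 27.4% of all ranked genes. The ranking is per kilobase, and these 100 genes had a median of 1622 bases of exon, against 4539 for all. Among the shortest genes (57 to 1775 bases) 59.9% were called higher. The mean level also rests on 7 mice of batch 5 and 4 of batch 1. Whether abundance itself goes with the calls was not tested. Tmsb4x was at rank 82 in batch 1 and rank 5 in batch 5. Uqcr11 moved from rank 42 to rank 7 and Ndufa4 from rank 62 to rank 12. Penk, in contrast, was at rank 3 in batch 1 and rank 13 in batch 5, and Cpe, carboxypeptidase E of peptide processing, was at rank 16 and rank 111. Calm2 held rank 2 in both, though its level was called higher in batch 5 (0.53 to 0.69 on the log2 scale with a mouse left out). In Gm23935 the mice of batch 5 fell far apart, with mice 5, 39 and 40 between 10.39 and 11.03 log2 cpm and the other 4 between 5.97 and 6.27, while batch 1 lay between 7.22 and 8.55, and the difference was 0.25 ± 1.22 (SE, adjusted p = 0.881).

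Genes with the smallest p among those higher in batch 5 were Mrpl33, Usmg5, Timm8b, Cystm1, Ubl5, Tmem261, Gpx1, Sec61g, Tmsb4x and RP23-478A9.6, and their log2 differences lay between 1.67 (Gpx1) and 2.58 (Tmsb4x). Tmsb4x (ENSMUSG00000049775.16, GRCm38 chrX:167207093-167209315) was at 8.99, 9.05, 9.09 and 8.87 log2 cpm in mice 8, 9, 10 and 35 of batch 1. In batch 5 it ranged from 11.26 to 11.93 with a median of 11.59. The groups did not overlap, and the difference was 2.58 ± 0.14 (SE, adjusted p = 1.68e-07), or 5.98-fold. Usmg5 (ENSMUSG00000071528.4, GRCm38 chr19:47083464-47090647), which encodes a small subunit associated with the mitochondrial ATP synthase, was at 7.57, 7.48, 7.40 and 7.64 in batch 1 and between 9.74 and 10.17 with a median of 10.09 in batch 5. Every mouse of batch 5 was above every mouse of batch 1, with a difference of 2.42 ± 0.12 (SE, adjusted p = 1.68e-07). Several of these genes act in mitochondria or at membranes. Mrpl33 is a subunit of the mitochondrial ribosome (1.96 ± 0.09), Timm8b a chaperone of the mitochondrial intermembrane space (2.33 ± 0.11), Sec61g a subunit of the channel of the endoplasmic reticulum (2.12 ± 0.11) and Gpx1 a glutathione peroxidase (1.67 ± 0.09).

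Genes with the smallest p among those lower in batch 5 were Gripap1, Gpatch4, Dpysl3, Armcx4, Mapk8ip3, Dnajc21, Spryd3, Cep290, Tenm1 and Plppr3, with log2 differences from -1.11 (Spryd3) to -1.67 (Tenm1). Gripap1 (ENSMUSG00000031153.16, GRCm38 chrX:7789765-7820567), which encodes an endosomal protein that binds the AMPA receptor scaffold GRIP, was at 8.49, 8.30, 8.38 and 8.27 log2 cpm in mice 8, 9, 10 and 35 of batch 1. It ranged from 6.87 to 7.13 with a median of 6.97 in batch 5. Batch 5 lay wholly below batch 1, by -1.35 ± 0.10 (SE, adjusted p = 8.51e-07). Mapk8ip3, a scaffold of kinesin transport, differed by -1.24 ± 0.10 and Tenm1, a large synaptic adhesion protein, by -1.67 ± 0.16. Dpysl3, a protein of growth cones, differed by -1.16 ± 0.09 and Cep290, a protein of the cilium base, by -1.14 ± 0.11. Of these genes, Tenm1 with 17747 bases of exon and Mapk8ip3 with 14558 are longer than Tmsb4x with 1371 and Timm8b with 518, which were higher.

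Stability was most precise in Stx16, Ube2a, Ywhab, Rnf25, Ubac1, Clpp, Serbp1, Pmpcb, Amdhd2 and Mterf2, whose confidence intervals reached least far from 0. Ywhab, an abundant 14-3-3 adaptor, was at 10.08, 9.97, 10.05 and 9.89 log2 cpm in batch 1 and between 9.90 and 10.10 with a median of 9.98 in batch 5. Its 95% interval ran from -0.20 to 0.20. Ube2a, a ubiquitin-conjugating enzyme, was between 7.53 and 7.57 in batch 1 and between 7.44 and 7.65 in batch 5, with an interval from -0.17 to 0.19. Stx16, a SNARE of the trans-Golgi, had an interval from -0.19 to 0.17. In these 3 genes the batches overlapped. The bounds depended on mouse 35 of batch 1, without which the outer bound was 0.34 in Ywhab (0.20 with all mice), Amdhd2 and Rnf25 and 0.33 in Clpp and Mterf2.

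Cytosolic ribosomal protein genes had the largest median difference among the gene families that were higher in batch 5. Of the 82 measured, 71 were called higher (86.6%, against 23.8% of all genes), 3 lower and 6 stable. Their median log2 difference was 1.20, with an interquartile range from 0.74 to 1.60, against -0.03 for all genes. Rpl41, the shortest of these proteins (GRCm38 chr10:128548114-128549305), was at 7.21, 6.95, 6.82 and 7.17 log2 cpm in batch 1 and between 9.02 and 9.59 with a median of 9.29 in batch 5. The batches did not overlap, and the difference was 2.20 ± 0.13 (SE, adjusted p = 2.78e-07). Rplp1, a protein of the ribosomal stalk, was 1.48 ± 0.15 higher, Rpl36 1.24 ± 0.14 higher and Rpl22l1, a paralog of Rpl22, 2.23 ± 0.12 higher. As a share of all reads in the table, the class took 0.999%, 0.882%, 0.860% and 1.02% in mice 8, 9, 10 and 35 of batch 1. It took from 1.54% to 2.10% with a median of 1.73% in batch 5, so no mouse of batch 5 was as low as any mouse of batch 1. The mean share was 0.941% ± 0.082 (SD, n = 4) against 1.78% ± 0.20 (SD, n = 7), a ratio of 1.89.

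Members that went against the class were Rpl10a, Rps9 and Rps3, of which Rps9 and Rps3 were singled out after their values were seen. Rpl10a (ENSMUSG00000037805.15, GRCm38 chr17:28328471-28331033) encodes the ribosomal protein that carries the tag in these mice, so its reads can come from the native gene and from the transgene. It was at 7.63, 7.41, 7.71 and 8.16 log2 cpm in batch 1 and between 6.66 and 6.98 with a median of 6.83 in batch 5. The batches did not overlap, and the difference was -0.98 ± 0.13 (SE, adjusted p = 1.03e-04). In the same 2 batches Rpl10a differed by -0.24 in FC mice (adjusted p = 0.530) and by 0.22 in EXT mice (adjusted p = 0.810, a difference that rests on 1 mouse of batch 5), and the TA and FC differences were not shown to differ (-0.62, adjusted p = 0.539, from a joint fit of TA and FC mice with a shared sex term, which need not equal one value minus the other). Rps9 was lower by -0.48 ± 0.13, a call lost without mouse 35 (-0.37), and Rps3 by -0.42 ± 0.11.

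Ribosomal protein messengers of mammals commonly begin with a cytosine followed by a run of pyrimidines, the terminal oligopyrimidine tract, through which their translation is adjusted as a group. The 30 bases around the annotated start (10 before and 20 after) are given as examples. They are from the 4 members with the largest differences whose window holds the letters CTTTC, and from the 3 members that were lower. Members on a single chromosome were left out of this choice. The 4 were picked for the letters and the 3 were not, so the windows given do not relate the letters to the differences. Sequences are from RefSeq on GRCm38.p6, 5′ to 3′ on the strand of the gene, with CTTTC in capitals, and were read at a start that holds the letters where a gene has several starts. They belong to Rps27 (chr3:90213629-90213658, minus strand), Rpl35 (chr2:39005112-39005141, minus strand), Rpl7a (chr2:26910797-26910826, plus strand), Rpl12 (chr2:32961702-32961731, plus strand), Rpl10a (chr17:28328461-28328490, plus strand), Rps9 (chr7:3704031-3704060, plus strand) and Rps3 (chr7:99483690-99483719, minus strand).
Rps27: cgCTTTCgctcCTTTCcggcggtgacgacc
Rpl35: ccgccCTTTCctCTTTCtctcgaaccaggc
Rpl7a: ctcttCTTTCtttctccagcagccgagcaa
Rpl12: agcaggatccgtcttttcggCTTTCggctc
Rpl10a: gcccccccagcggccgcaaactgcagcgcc
Rps9: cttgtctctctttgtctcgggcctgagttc
Rps3: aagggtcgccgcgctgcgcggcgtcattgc

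Log2 differences of the first 4 genes were 2.31, 1.79, 1.61 and 1.53. Windows were at hand for 61 of the 82 ribosomal protein genes, and 15 of them (24.6%) held CTTTC, against 240 of 6393 genes of the table with a window (3.75%). On the other strand, read as GAAAG, it was in 3 of the 61 (4.92%) and in 3.35% of all. Of the 52 ribosomal protein genes with a window that were called higher, 14 held CTTTC, and of the 9 others 1 did. The letters are a description of the starts and were not tested against the differences.

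Nuclear genes of oxidative phosphorylation, which encode the subunits of the respiratory chain and ATP synthase, were higher in batch 5 in 60 of 78 (23.8% of all genes), lower in 3 and stable in 13. Their median difference was 0.87. Cox7b, a subunit of cytochrome c oxidase, was at 7.37, 7.32, 7.06 and 7.50 log2 cpm in batch 1 and between 9.31 and 9.83 with a median of 9.69 in batch 5. No values overlapped, and the difference was 2.27 ± 0.13 (SE, adjusted p = 1.87e-07). Cox8a and Cox6b1, of the same complex, were both higher by 1.21, with SE of 0.12 and 0.13. Ndufa1, the member with the highest level, differed by -0.11 ± 0.17 (adjusted p = 0.614). Sdha, the flavoprotein of succinate dehydrogenase, was lower by -0.94 ± 0.12 (adjusted p = 7.12e-05). The class took 3.16% ± 0.37 of reads in batch 1 (SD, n = 4) and 4.98% ± 0.35 in batch 5 (SD, n = 7), a ratio of 1.57.

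Mitochondrial ribosomal proteins, which translate the messengers made inside mitochondria, were higher in 53 of 77 (68.8%, against 23.8% of all genes), lower in 3 and stable in 20 (26.0%, against 27.4% of all genes), with a median of 0.47. Mrpl41 was higher by 0.92 ± 0.11 and Mrpl57 lower by -0.57 ± 0.11. Transcripts of the mitochondrial genome went the other way. All 8 had a negative difference, 5 of them were called lower (23.8% of all genes) and none was stable, with a median of -1.44. mt-Co1, the core subunit of cytochrome c oxidase, was at 9.74, 8.59, 8.91 and 7.90 log2 cpm in mice 8, 9, 10 and 35 and between 6.22 and 8.92 with a median of 7.03 in batch 5. Mouse 37 of batch 5 held the value of 8.92, within the range of batch 1, and the difference was -1.48 ± 0.51 (SE, adjusted p = 0.0315). It missed the threshold without mouse 4 (-1.54), 5 (-1.07), 8 (-1.23) or 10 (-1.46). Malat1, a long RNA that stays in the nucleus, was also high in mouse 37 (8.54, against 4.21 to 5.79 in the other mice of batch 5 and 6.43 to 7.84 in batch 1), and its difference was -1.83 ± 0.75 (adjusted p = 0.0621). Malat1 ranged from -2.44 to -1.42 with a mouse left out and passed the threshold without mouse 37 (-2.11).

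**Figure D2:**
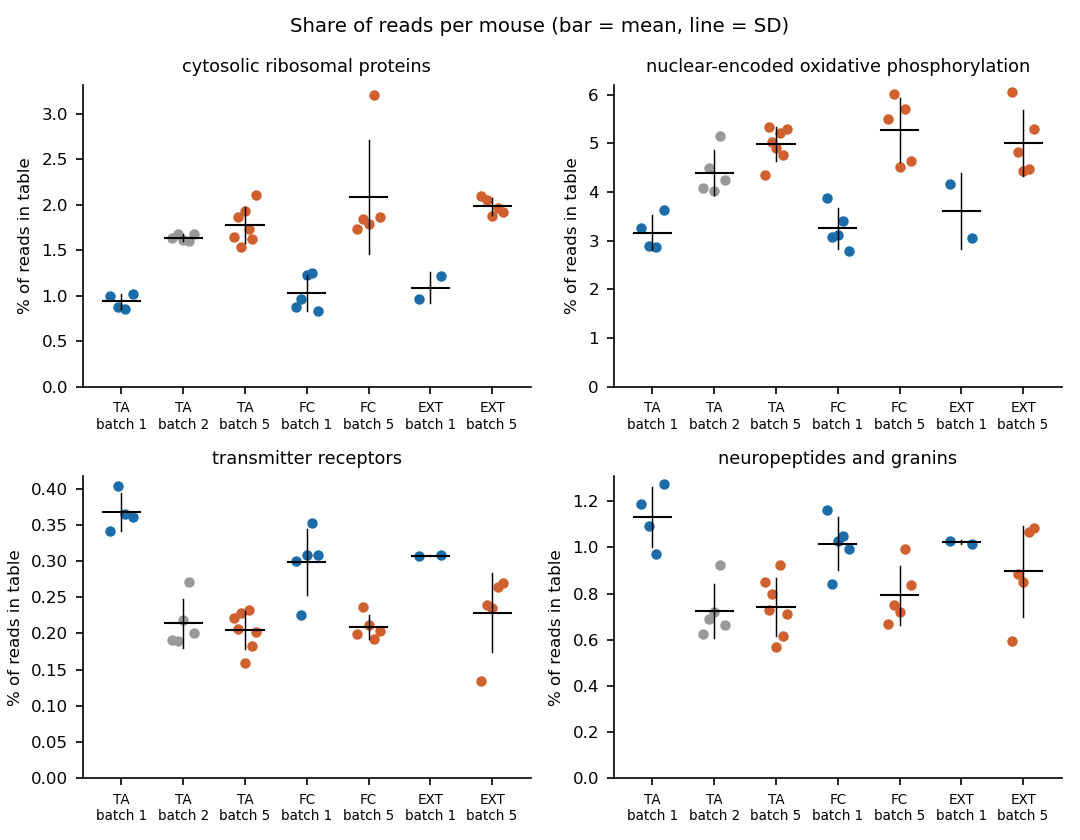
Share of the reads in the table (percent) taken by 4 gene classes, each point a mouse, with the mean and SD of each group and batch. In TA mice the ribosomal protein share was 0.860% to 1.02% in batch 1 and 1.54% to 2.10% in batch 5, and the receptor share 0.341% to 0.404% and 0.159% to 0.232%.

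Receptors for transmitters were mostly lower in batch 5. Of 28 subunits of glutamate, GABA and glycine receptors, 18 were called lower (64.3%, against 23.8% of all genes), none was called higher and 1 was stable, with a median of -0.64. Grin1, the obligatory subunit of NMDA receptors (GRCm38 chr2:25291181-25319187), was at 6.10, 6.23, 6.17 and 6.20 log2 cpm in batch 1. It ranged from 3.92 to 5.06 with a median of 4.68 in batch 5. The batches did not overlap, and the difference was -1.51 ± 0.19 (SE, adjusted p = 5.48e-05), or 2.86-fold lower. Glrb, the beta subunit of glycine receptors, was lower by -0.82 ± 0.14 and Gabbr1, of the metabotropic GABA receptor, by -0.75 ± 0.21, a call that was lost without mouse 35 (-0.64). The class took 0.368% ± 0.026 of reads in batch 1 (SD, n = 4) and 0.205% ± 0.026 in batch 5 (SD, n = 7).

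Adhesion proteins of neurons were lower in 17 of 23 genes (73.9%, against 23.8% of all genes), higher in none and stable in 2, with a median of -0.70. Ncam1, the neural cell adhesion molecule, was lower by -1.20 ± 0.16 and Cadm1, of synaptic contacts, by -0.59 ± 0.12. Potassium channels were lower in 14 of 34 (41.2%), higher in 3 and stable in 3 (median -0.46). Kcng1, a modulatory subunit, was lower by -0.56 ± 0.11, and Kcnip2, which binds Kv4 channels, was higher by 0.63 ± 0.11. Calcium, sodium and HCN channels were lower in 10 of 21 (47.6%) and higher in 3 (median -0.51). Of these, Cacna2d3, an auxiliary subunit of calcium channels, was at 6.91, 7.09, 7.13 and 7.49 log2 cpm in batch 1 and between 4.92 and 5.99 in batch 5, lower by -1.60 ± 0.23 (SE, adjusted p = 1.41e-04).

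Neuropeptides and granins, the cargo and machinery of dense-core vesicles, were measured in 21 of 23 listed genes. Of these, 10 were lower in batch 5 (47.6%) and 3 were higher (14.3%), against 23.8% of all genes in each direction, and none was stable, with a median of -0.60. Vgf, a granin, was at 7.13, 7.31, 6.96 and 7.17 log2 cpm in batch 1 and between 4.87 and 5.97 with a median of 5.73 in batch 5. Its values did not overlap, and the difference was -1.54 ± 0.21 (SE, adjusted p = 1.17e-04). Cpe was lower by -0.84 ± 0.20 (adjusted p = 0.00435). Penk was at 11.68, 11.47, 11.68 and 11.98 in batch 1 and between 10.09 and 11.24 in batch 5, lower by -0.78 ± 0.22 (adjusted p = 0.0109). Without mouse 35 neither Cpe (-0.55) nor Penk (-0.50) passed the threshold. Cck, which encodes cholecystokinin, was higher, at 6.02, 5.50, 6.10 and 5.50 in batch 1 and between 6.18 and 7.53 in batch 5, a difference of 1.37 ± 0.27 (adjusted p = 0.00152). In mice of batch 5 the class took 0.743% ± 0.125 of reads (SD, n = 7) against 1.13% ± 0.13 in batch 1 (SD, n = 4).

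Crh (GRCm38 chr3:19693401-19695396), the gene that defines the neurons, was at 7.17, 6.65, 5.83 and 6.58 log2 cpm in mice 8, 9, 10 and 35 and between 4.81 and 6.29 with a median of 5.68 in batch 5. The lowest mouse of batch 1, mouse 10, lay within the range of batch 5. The difference was -0.93 ± 0.31 (SE, adjusted p = 0.0246), or 1.91-fold lower, and it missed the threshold when mouse 4 (-0.96), 5 (-0.96), 8 (-0.77) or 35 (-0.82) was left out. Fewer Crh neurons in the pulldown and less Crh RNA per neuron cannot be told apart in these bulk samples. Gad1, which makes GABA in all inhibitory neurons, differed by -0.18 ± 0.14 (adjusted p = 0.326). Of the markers of GABAergic and central amygdala neurons, 20 of 23 were in the table, with Prkcd, Isl1, Drd1 and Drd2 among them. Slc32a1, Dlx2 and Dlx6 were outside it. Of the 20 markers, 5 were lower (25.0%), 2 higher (10.0%) and 7 stable (35.0%). These lay near the shares of all genes in the lower and stable calls (23.8% and 27.4%).

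**Figure D3:**
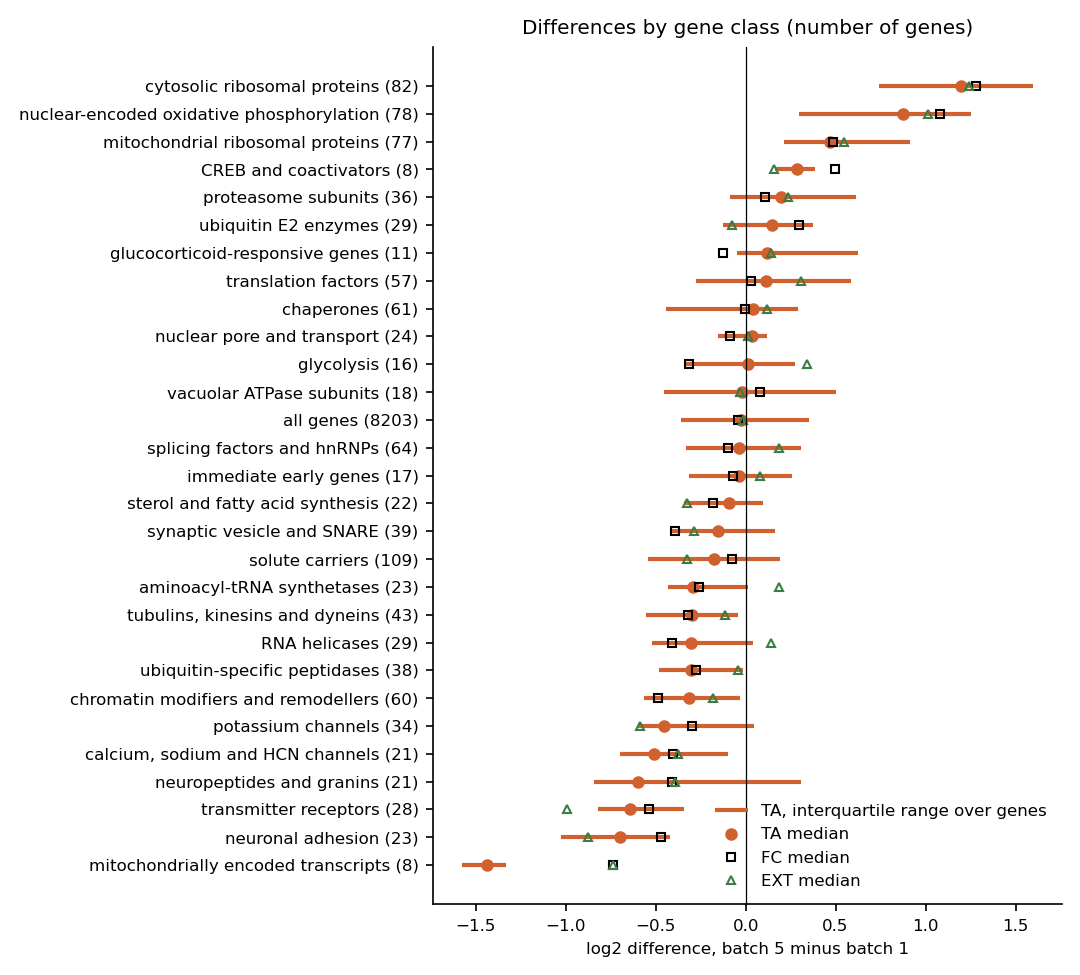
Median log2 difference of each gene class between batch 5 and batch 1 in TA mice (filled circles, with the interquartile range over genes), with the medians of FC and EXT mice (open squares and triangles). Cytosolic ribosomal proteins are at 1.20, 1.28 and 1.24 in TA, FC and EXT mice, and transmitter receptors at -0.64, -0.54 and -0.99.

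Other classes lay between these extremes. Nuclear pore and transport genes, which carry molecules between nucleus and cytosol, had the highest share of stable members among the families, 16 of 24 (66.7%, against 27.4% of all genes), with 2 higher and 2 lower. Ipo4, an importin, was lower by -0.63 ± 0.11 and Nup62, a nucleoporin, higher by 0.42 ± 0.13, which missed the threshold without mouse 4 (0.32) or 35 (0.46). Proteasome subunits were higher in 15 (41.7%, against 23.8% of all genes), lower in 4 and stable in 16 (44.4%) of 36. Psma5, of the catalytic core, was higher by 0.91 ± 0.09 and Psmd2, of the regulatory cap, lower by -0.56 ± 0.11. Chaperones were higher in 14 (23.0%), lower in 19 (31.1%) and stable in 23 (37.7%) of 61. Translation factors were higher in 20 (35.1%), lower in 13 (22.8%) and stable in 17 (29.8%) of 57, with the elongation factor Eef1a1 higher by 0.64 ± 0.11, the initiation factor subunit Eif3k higher by 1.37 ± 0.11 and Eif3b of the same complex lower by -0.72 ± 0.09.

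Genes of chromatin modification and remodeling were lower in 26 (43.3%, against 23.8% of all genes), higher in 4 and stable in 18 (30.0%, against 27.4%) of 60 (median -0.32), with Arid4a lower by -1.12 ± 0.11. RNA helicases were lower in 11 (37.9%), higher in 2 and stable in 9 of 29 (median -0.30). Ubiquitin-specific peptidases were lower in 14 (36.8%), higher in 3 and stable in 9 of 38 (median -0.31), and ubiquitin E2 enzymes were higher in 10 (34.5%, against 23.8% of all genes), lower in 4 and stable in 12 (41.4%) of 29 (median 0.14). Microtubule genes and their motors were lower in 17 (39.5%) and higher in 4 of 43, with the kinesin light chain Klc1 lower by -0.94 ± 0.11 and the dynein light chain Dynll1 higher by 1.53 ± 0.11. Splicing factors and hnRNPs were higher in 16 (25.0%), lower in 18 (28.1%) and stable in 19 (29.7%) of 64, shares near those of all genes. Aminoacyl-tRNA synthetases were lower in 8 (34.8%), higher in 3 and stable in 6 of 23. Solute carriers were lower in 33 (30.3%), higher in 14 and stable in 22 of 109. Subunits of the vacuolar ATPase were higher in 6 (33.3%), lower in 5 (27.8%) and stable in 6 (33.3%) of 18, and genes of sterol and fatty acid synthesis were lower in 5 (22.7%), higher in 1 and stable in 6 of 22.

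Synaptic vesicle genes were lower in 11 (28.2%, against 23.8% of all genes), higher in 5 (12.8%) and stable in 11 (28.2%, against 27.4%) of 39, and their summed share of reads was 1.81% ± 0.12 in batch 1 (SD, n = 4) and 1.81% ± 0.09 in batch 5 (SD, n = 7). Snap25, a SNARE of transmitter release and an abundant member, was higher by 0.67 ± 0.10, and Unc13a, which primes vesicles, was lower by -0.99 ± 0.12. Among 16 glycolysis genes 3 were higher (18.8%), 5 lower (31.2%) and 7 stable (43.8%), with a summed share of 1.59% ± 0.02 and 1.60% ± 0.10. Tpi1 was higher by 0.40 ± 0.09, Pfkm was lower by -0.90 ± 0.11 and Gapdh differed by 0.20 ± 0.10 (adjusted p = 0.125).

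Genes that respond to activity and stress were of interest because the study uses TA mice as the reference for learning. Of 33 listed immediate early genes, 17 were in the table, and 2 were higher (11.8%), 2 lower (11.8%) and 3 stable (17.6%), against 23.8% of all genes in each direction and 27.4% stable. Fos was at 3.76, 4.68, 5.34 and 4.39 log2 cpm in mice 8, 9, 10 and 35 and between 4.33 and 5.26 with a median of 4.72 in batch 5. Its batches overlapped, and the difference was 0.26 ± 0.27 (SE, adjusted p = 0.461), from 0.035 without mouse 8 to 0.49 without mouse 5. Junb, also of the AP-1 family, was at 6.63, 6.91, 7.07 and 6.70 in batch 1 and between 5.92 and 6.49 in batch 5, lower by -0.57 ± 0.14 (adjusted p = 0.00669). Dusp1, a phosphatase of MAP kinases, differed by -0.31 ± 0.16 (adjusted p = 0.123), which passed the threshold without mouse 8 (-0.46), and Id3, an inhibitor of transcription factors, by 0.71 ± 0.35 (adjusted p = 0.120).

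Among 11 measured of 15 listed glucocorticoid-responsive genes, 3 were higher (27.3%, against 23.8% of all genes), 1 lower (9.09%) and 3 stable (27.3%, against 27.4%). Fkbp5, a chaperone of the glucocorticoid receptor, was lower by -0.62 ± 0.15 (adjusted p = 0.00517), and Fkbp4, its counterpart, differed by -0.01 ± 0.10 (adjusted p = 0.910). Sgk1, a kinase induced by corticosterone, ranged from 6.40 to 8.70 log2 cpm in batch 5 and from 6.36 to 7.27 in batch 1 (0.89 ± 0.41, adjusted p = 0.0880). Its difference was 0.49 without mouse 5 and 1.32 without mouse 35, and passed the threshold without mouse 37 (1.02). Mt1, a metallothionein, was higher by 1.85 ± 0.28 (adjusted p = 2.31e-04). Of CREB and its coactivators, 8 of 10 were measured, 2 were higher (25.0%), none was lower and 3 were stable (37.5%). Creb1 differed by 0.32 ± 0.13 (adjusted p = 0.0676), from 0.13 without mouse 35 to 0.45 without mouse 5, where it passed the threshold, and Crem, a related factor, was higher by 1.24 ± 0.11 (adjusted p = 4.11e-06).

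Markers of other cells were read in the same samples. Choroid plexus markers were in the table for 5 of 17, and their summed share of reads was 0.291%, 0.156%, 0.0210% and 1.17% in mice 8, 9, 10 and 35 of batch 1 and from 0.661% to 2.81% in batch 5. Ttr was at 10.46, 9.10, 3.88 and 12.06 log2 cpm in batch 1 and between 12.32 and 14.25 in batch 5, with a difference of 3.65 ± 1.20 (SE, adjusted p = 0.0245). The call for Ttr was lost without mouse 4 (3.56) or mouse 5 (2.82). Trpm3 was higher by 1.83 ± 0.39 (adjusted p = 0.00222), and Enpp2 differed by 1.09 ± 0.97 (adjusted p = 0.374), from 0.21 without mouse 10 to 2.60 without mouse 35. Oligodendrocyte markers were in the table for 16 of 19, with 1 higher (6.25%, against 23.8% of all genes), Car2 (1.07 ± 0.26), and a summed share of 0.177% to 0.592% in batch 1 and 0.279% to 0.747% in batch 5. Mbp, the myelin protein, differed by 0.64 ± 0.50 (adjusted p = 0.308), from 0.26 without mouse 5 to 1.37 without mouse 35. Astrocyte markers were in the table for all 19 listed, with 3 higher (15.8%), among them Fabp7 (1.56 ± 0.37, lost without mouse 35 at 1.19) and Cst3 (0.93 ± 0.30, lost without mouse 4, 5 or 10 at 0.81, 0.80 and 0.77), and shares of 0.164% to 0.555% and 0.289% to 0.593%.

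Glutamatergic markers were in the table for 7 of 16, namely Slc17a7, Neurod6, Camk2a, Nrgn, Lamp5, Nptx1 and Nrn1. Slc17a6 and Tbr1 were among those outside it. Of the 7 markers, 4 were higher (57.1%, against 23.8% of all genes). The summed share of the list was 0.0760% to 0.0882% in batch 1 and 0.0943% to 0.127% in batch 5. Nrgn, of excitatory neurons, was higher by 0.74 ± 0.13. Of the 7 markers, 5 had a difference above 0, and the lowest difference was -0.33. Hba-a1, of red blood cells, was the 1 of 5 such markers in the table and was higher by 3.29 ± 0.70 (adjusted p = 0.00239). Of microglia markers 2 of 14 (Cd68 was higher), of endothelial and mural markers 3 of 15, and of oligodendrocyte precursor markers 0 of 5 were in the table. Markers outside the table, which holds no count under 28 reads, were not analysed here. The part of these other cells in the differences between batches was not tested. In none of these marker lists was a member called lower in batch 5, against 23.8% of all genes. Most oligodendrocyte and astrocyte markers were called in neither direction, and none of them was stable.

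The difference between the batches moved with the length of the genes. Genes were ordered by exon length into 10 bins. In the 815 genes with the shortest exons (57 to 1775 bases) the median log2 difference was 0.57, and 59.9% were called higher and 5.40% lower. In the 815 genes with the longest exons (10382 to 123179 bases) the median was -0.28, with 5.64% higher and 37.1% lower. In between, the median was 0.22 in bin 2, 0.06 in bin 3 and -0.20 in bin 9. Stable genes made up 19.3% of the shortest bin and between 25.9% and 31.7% of the others. The Spearman correlation between difference and exon length was -0.36 across 8148 genes, and that with GC content of the longest annotated transcript was -0.09. The points are genes of the same libraries and are not independent.

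**Figure D4:**
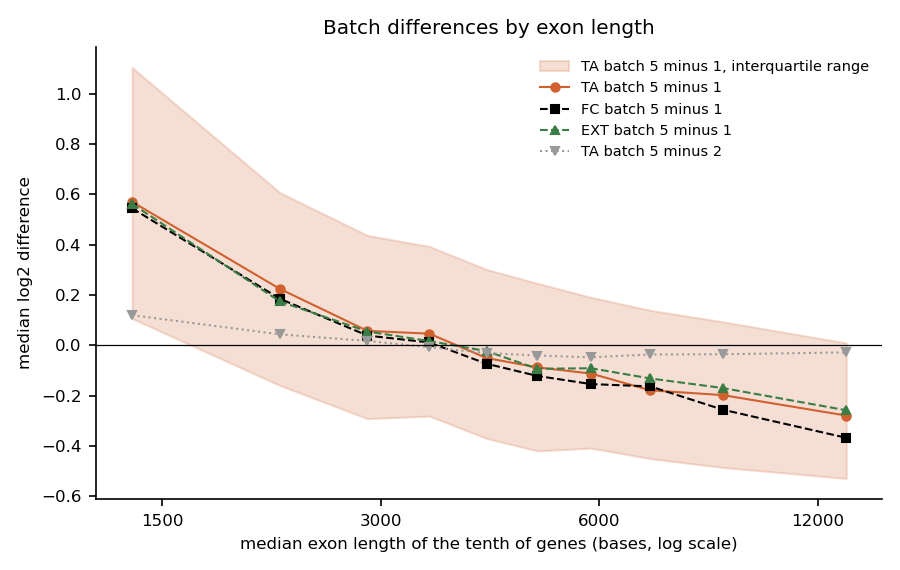
Median log2 difference in 10 bins of genes ordered by exon length (bases, log axis), with the interquartile range over genes for the TA difference between batch 5 and batch 1. The TA, FC and EXT lines fall from 0.57, 0.54 and 0.56 in the shortest bin to -0.28, -0.37 and -0.26 in the longest, while batch 5 minus batch 2 in TA mice stays between 0.12 and -0.05.

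Classes were therefore also read beside other genes of like length. Between 500 and 2000 bases of exon, 44 ribosomal protein genes had a median difference of 1.39 and 44 oxidative phosphorylation genes one of 1.16, against 0.43 for 863 genes outside the classes read in this window. Mitochondrial ribosomal proteins (30 genes) were at 0.62, proteasome subunits (11 genes) at 0.55 and neuropeptides and granins (10 genes) at 0.32. Called higher were 90.9%, 88.6%, 73.3%, 54.5% and 30.0% of these classes in turn, against 53.3% of the 863 other genes. Between 4000 and 12000 bases, 19 receptor genes were at -0.74, 15 adhesion genes at -0.71 and 21 potassium channel genes at -0.46. In that window 41 chromatin genes were at -0.32 and 9 calcium, sodium and HCN channel genes at -0.29, against -0.13 for 4040 others. Called lower were 84.2%, 66.7%, 42.9%, 48.8% and 22.2% of these classes in turn, against 29.0% of the others. Nuclear pore and transport genes (15 genes) were at -0.01 there.

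With the trend of length and GC content taken out of the values of each mouse, a step added after the data were seen, 3594 genes were called (43.8%), 1838 higher (22.4%) and 1756 lower (21.4%), and 2667 were stable (32.5%). Of the 3904 genes called on the deposited values, 2973 were called in the same direction and 93 had the opposite sign. Ribosomal proteins had a median of 0.80 then, with 65 higher and 4 lower, and oxidative phosphorylation genes one of 0.33, with 47 higher and 9 lower. Receptors were at -0.58 (19 lower), adhesion genes at -0.53 (13 lower) and potassium channels at -0.20 (6 lower, 4 higher). Neuropeptides and granins were at -0.70 (10 lower, 2 higher). Ndufa1 was then lower, at -1.38 (adjusted p = 1.38e-05), Calm2 was at 0.04 (adjusted p = 0.797) and Ttr at 3.00 (adjusted p = 0.0611). Tmsb4x was higher by 2.04 and Gripap1 lower by -1.20. Calls were lost for Junb (-0.39), Fkbp5 (-0.39), Rpl36 (0.21), Mrpl41 (0.15), Fabp7 (0.86) and Cst3 (0.53).

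To see whether the batches differed alike in other mice, the same contrast was read in FC mice (5 of batch 1 and 5 of batch 5) and EXT mice (2 of batch 1 and 5 of batch 5), which share no mouse with the TA contrast. Both EXT mice of batch 1 were female and batch 5 held 1 female, mouse 24, so with sex as a term the EXT difference of each gene is mouse 24 minus the mean of mice 26 and 28, and the males add only to the estimate of the spread. In FC mice 2230 genes were called (27.2%), 1202 higher (14.7%) and 1028 lower (12.5%), and 80.5% of all genes had the sign of the TA difference. Of the 3904 TA genes, 3685 (94.4%) had the same sign in FC mice. The genes called in the same direction in both numbered 1805, which is 46.2% of the TA list and 80.9% of the FC list, and 4 were called in opposite directions. In EXT mice 623 genes were called (7.59%), 370 higher (4.51%) and 253 lower (3.08%). At an unadjusted p under 0.05 these contrasts held 40.2% of all genes in FC and 24.4% in EXT mice. Of the TA genes, 3547 (90.9%) had the same sign in EXT mice, against 77.2% of all genes, and 559 were called in the same direction, 14.3% of the TA list and 89.7% of the EXT list. The Spearman correlation of the differences across 8203 genes was 0.78 between TA and FC and 0.74 between TA and EXT mice. The FC count was 948 without FC mouse 49, the male of batch 1, and 1375 and 1296 without mouse 12 or mouse 13, the females of batch 5. The EXT count was 0 without mouse 57 or mouse 58, 47 without mouse 59, 269 without mouse 60, 1276 without mouse 26 and 1144 without mouse 28.

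**Figure D5:**
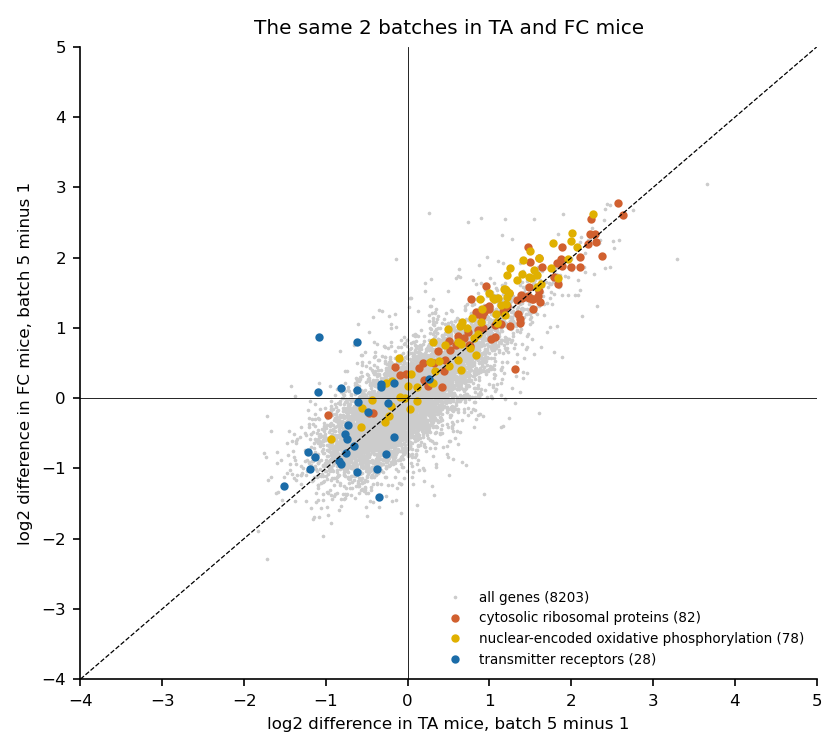
Log2 difference between batch 5 and batch 1 in TA mice (x axis) and in FC mice (y axis), each point a gene, with the line of equal differences dashed. Cytosolic ribosomal proteins and oxidative phosphorylation genes lie to the upper right and most receptor genes to the lower left.

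Class medians in the other groups were close for some classes and unlike for others. Ribosomal proteins had a median of 1.20 in TA, 1.28 in FC and 1.24 in EXT mice, and 65 of 82 were called higher in FC mice. Oxidative phosphorylation genes were at 0.87, 1.08 and 1.01, and receptors at -0.64, -0.54 and -0.99. Tmsb4x was higher by 2.26 in FC mice (adjusted p = 7.77e-05) and by 2.10 in EXT mice (adjusted p = 0.0144), and Usmg5 by 2.70 and 2.14. Crh was lower by -1.39 in FC mice (adjusted p = 0.00238) and at -1.05 in EXT mice (adjusted p = 0.193). Transcripts of the mitochondrial genome had medians of -1.44, -0.74 and -0.74 in TA, FC and EXT mice, and none of the 8 was called in FC mice. Medians were unlike in the glutamatergic markers (0.74, -0.25 and 0.25), the oligodendrocyte markers (0.35, 1.48 and 0.33) and the choroid plexus markers (1.09, 1.04 and 3.72). Medians of other classes took another sign in FC or EXT mice, as those of RNA helicases (-0.30, -0.41 and 0.14), aminoacyl-tRNA synthetases (-0.29, -0.26 and 0.18) and glycolysis genes (0.01, -0.31 and 0.34). Each EXT value here, that of the choroid plexus markers included, rests on mouse 24 alone in batch 5. Over all EXT mice of batches 1 and 5, without a sex term, mean summed shares of reads were 0.215% and 0.204% for helicases. They were 0.218% and 0.203% for synthetases and 1.49% and 1.48% for glycolysis genes. The difference between the TA and the FC contrast was past FDR 0.05 for 0 genes (0%) with limma, and 727 genes (8.86%) had an unadjusted p under 0.05. It was taken from a joint fit of TA and FC mice with a shared sex term, so it need not equal the TA value minus the FC value of the separate fits. For Cck, higher by 1.37 in TA mice and at 0.08 in FC mice, that difference was 0.72 (adjusted p = 0.721), and for Glrb, at -0.82 and 0.15, it was -0.91 (adjusted p = 0.303).

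Batch 2 also held TA mice (1 female and 4 males), which share their controls with the contrasts above. Batch 2 differed from batch 1 in 3754 genes (45.8%), 1945 higher (23.7%) and 1809 lower (22.1%), with 53.1% of genes at an unadjusted p under 0.05. Batch 5 differed from batch 2 in 0 genes (0%) with limma, with 1444 genes (17.6%) at an unadjusted p under 0.05. The ribosomal protein share was 1.60% to 1.68% in batch 2, close to batch 5 and above every mouse of batch 1, and its class median was 1.12 for batch 2 against batch 1 and 0.14 for batch 5 against batch 2. Oxidative phosphorylation genes were at 0.69 and 0.21, receptors at -0.64 and -0.02, and adhesion genes at -0.71 and -0.02 in these contrasts. Transcripts of the mitochondrial genome, at -2.95 and 1.48, were lower in batch 2 than in both other batches by their medians. Within batches 1 and 5 together, FC and TA mice differed in 0 genes (0%) at FDR 0.05 with limma, with 1376 genes (16.8%) at an unadjusted p under 0.05.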

How the data were processed

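TRAP-seq of Crh neurons was read in 11 TA mice of batches 1 and 5, with further mice of the series for comparison. Per the labels and methods, the authors used Trimmomatic 0.36 on the reads, STAR with GRCm38 for mapping and edgeR for the gene counts, removed genes of low cpm, and retained samples by behavioral data and outlier checks. The deposited values are log2 cpm in the form that voom of limma gives. Each of the 360932 values gave back a whole number of reads within 0.01. Effective library size lay between 14649837 and 20440351 reads in the 11 mice, and their lowest count was 29. Each sample is a separate mouse.

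The deposited log2 values were fitted by limma (version 3.58.1, lmFit and eBayes, R 4.3.3) with batch and sex as terms, two-sided, with Benjamini-Hochberg adjustment over 8203 genes. No count model was run, since the deposited unit is log2. The fit was tested on simulated data in which few genes changed and noise was drawn separately for each gene. That setting differs from these data, so the simulation does not bear on the number of genes called here. Levels of different genes were compared per kilobase of merged exons of GENCODE M21, which is not necessarily the annotation of the authors (8148 genes matched, 143 of them by an older symbol). Symbols written as dates numbered 17, and 18 symbols lay on several loci. The batches, gene lists and tests were chosen with earlier results of these data known. Named genes are the 20 highest in the ranking, the 10 with the smallest p in each direction, the 10 whose interval reached least far from 0, 11 genes around Crh, Fos and Fkbp5, and, from each list, members with the highest level or the smallest p. Some of these are not reported here. Marker genes, Rps27, Rpl35, Rpl7a and Rpl12 were named outside this rule. Genes with near-identical copies, such as ribosomal proteins, can share reads with them. Alternatives changed the sex term, library size, weights, moderation, normalization, filter, pseudocount and samples.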

Additional observations from a re-analysis of the deposited data

Results flagged for a closer look

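Of 294 groups of mice examined, 12 held a mouse that lay far from the rest of its batch. Chance alone gives about 1 in 20, so the number flagged is no more than chance gives. Mouse 37 of batch 5 stood apart in 5 of the 12. These 5 are not independent, since Malat1 is itself among the nuclear-retained long RNAs. Its share of mitochondrially encoded reads was 0.300%, against 0.0354% to 0.103% in the other mice of the batch, and that of nuclear-retained long RNAs was 0.0750%, against 0.00675% to 0.0128%. In the same mouse Malat1 was at 8.54 log2 cpm (others 4.21 to 5.79), Mt1 at 10.34 (others 8.77 to 9.21) and Penk at 10.09 (others 10.86 to 11.24).

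Also in batch 5, mouse 40 had a red blood cell share of 0.0676% (others 0.00387% to 0.0152%), mouse 4 a synaptic vesicle share of 2.00% (others 1.70% to 1.80%) and mouse 5 an Arid4a value of 5.52 log2 cpm (others 5.78 to 5.94). In batch 1, mouse 10 had a glycolysis share of 1.56% (others 1.60% to 1.61%) and an Arid4a value of 7.13 (others 6.81 to 6.85). Gpatch4 was at 6.67 in mouse 9 (others 6.86 to 6.88) and Mterf2 at 4.43 in mouse 35 (others 4.60 to 4.64).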

How the results depend on the processing

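No paired analysis was possible because each mouse has its own animal number and the replicate numbers of the groups were given only in accession order. The count of 3904 genes between TA batches 5 and 1 stayed within 1.5 times under each alternative run, from 2968 to 3950 when a mouse was left out. Fewer of these same genes stayed called in the same direction. They numbered 2687 with library size as a covariate, 2479 in females only and 3074 with all samples in the fit. Without mouse 35 they numbered 2742, and without another mouse 3168 to 3812. Of the 3904 genes, those tested kept their sign under each alternative (2951 were tested at a mean log2 of at least 5 and all 3904 under the others) except the correction for length and GC, where 93 changed sign, and quantile normalization, where Calm2 did (-0.046). The count of stable genes was 1243 with library size as a covariate, 1213 in females only, 6267 with a limit of 1 and 1438 to 2278 with a mouse left out. The FC count was 397 with library size as a covariate and 948 to 2371 with a mouse left out. The EXT count was 81 with library size, 150 with array weights, 164 with values corrected for length and GC (added after seeing the data) and 0 to 1276 with a mouse left out, and could not be fitted without EXT mouse 24. The difference between TA and FC called 1 gene with no sex term, 1 with array weights and 0 to 8 with a mouse left out (8 without FC mouse 19). Batch 5 against batch 2 called 1 gene with no sex term, 3 with array weights and 0 to 34 with a mouse left out (34 without TA mouse 33). FC against TA called 2 genes with all samples in the fit, 13 with array weights and 0 to 52 with a mouse left out (52 without FC mouse 45, 29 without TA mouse 37). The difference in library size ranged from -2661865 to -1258270 reads with a mouse left out. The cause of these shifts was not tested.

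Over the genes followed by name and all alternatives, mouse removals included, calls were lost without a change of sign in 70 pairings of gene and alternative. Calls were gained in 36 pairings. Among the genes named here, besides Calm2, the differences that changed sign had not passed the threshold. Ndufa1 was at 0.042 with no sex term, 0.022 with all samples in the fit, 0.060 in females only and -0.28 to 0.060 with a mouse left out. Fkbp4 was at 0.0088 with all samples, 0.044 with array weights, 0.0074 with median centring, 0.090 in females only, 0.0067 with all TA samples, 0.0060 after correction and -0.072 to 0.090 with a mouse left out. Sst was at -0.28 with library size as a covariate, -0.038 with quantile normalization, -0.71 after correction and -0.19 to 0.28 with a mouse left out. Gm23935 was at -0.64 with array weights, -1.04 after correction and -0.91 to 1.08 with a mouse left out. Enpp2 was at -0.64 with library size as a covariate, Bex3 at -0.088 with quantile normalization and -0.57 after correction, and Stmn3 at -0.16 after correction.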
